A study of Saccharomyces cerevisiae with 8 samples.

Results

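Haploid cells of the yeast Saccharomyces cerevisiae have mating type a or alpha, and each type expresses its own small set of genes for finding and binding a partner of the other type. The mating-type-specific genes described here are 10 in number, of 5449 yeast genes with a probe set on the array. Of these, 7 are a-specific (MFA1, MFA2, STE6, STE2, BAR1, AGA2 and ASG7) and 3 are alpha-specific (MF(ALPHA)1, STE3 and SAG1). They were chosen by these textbook classes with their signals on these same arrays already known, so the level of each gene against background is given as a description, with no test. The change with iron is taken from a fit across all genes. It is computed from these same signals, so its p-values are not independent of the choice. Each of the 10 matched exactly 1 probe set by its symbol, and all 10 passed the filter on dim genes.

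In low iron, strain DBY7286 was grown with 10 µM ferrous ammonium sulfate, in 4 independent cultures. In high iron it was grown with 300 µM, also in 4 cultures. All 8 cultures shared the rest of the medium, a minimal medium buffered at pH 6.1 with 1 µM copper. It also held Ferrozine at 1 mM, which chelates ferrous iron. The cultures were shaken at 30 °C and harvested in mid-log phase after about 18 h. Total RNA of each culture was hybridised to its own Affymetrix yeast array. The labels do not give the mating type of the strain, and no pheromone treatment is named in them.

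In an alpha cell, the alpha1 protein turns on the alpha-specific genes together with Mcm1, and the alpha2 protein shuts off the a-specific genes together with Mcm1 and the corepressor Tup1-Cyc8. An a cell has neither alpha protein, so Mcm1 keeps its a-specific genes on and the alpha-specific genes lack their activator. When pheromone binds its receptor, a G protein and a kinase cascade activate Ste12, which raises many mating genes, including several a-specific ones above their basal level.

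On these arrays a signal is the MAS5 intensity of a probe set, on a linear scale. The trimmed mean of the deposited values was 500.2 on each array. Background was taken as the 95th percentile of 1746 probe sets for the distant yeast Schizosaccharomyces pombe on the same array, which was 5.40 to 8.06. The brightest probe set of an array read 6597 to 7706, and changes near that level can be compressed. Pairs of low-iron arrays correlated across genes at 0.983 to 0.996, pairs of high-iron arrays at 0.994 to 0.997, and mixed pairs at 0.954 to 0.969. A second principal component with 12.1% of the variance set low-iron arrays 1 and 2 apart from low-iron arrays 3 and 4. Between low and high iron 2133 of 5412 tested genes differed, or 39.4%, with 22.7% lower and 16.8% higher in low iron (limma, adjusted p under 0.05). With quantile normalization 1181 genes were higher and 1091 lower, against 907 and 1226 in the fit used here. With only 4 arrays in each condition, their number limits how precise any value can be.

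The a-specific genes lay far above background in both conditions, and 6 of the 7 fell in low iron. Over all 7 genes the signals ran from 91.3 to 4571 in low iron and from 284 to 5812 in high iron, or 13.8 to 810.3 times and 35.3 to 1031 times the background of the array. Both ranges start at ASG7 and end at STE2. Probe sets differ in how strongly they bind their target, so these levels show each gene against background and do not rank transcripts of different genes. The log2 changes, low minus high iron, ran from -2.08 for AGA2 to -0.12 for MFA2, with a median of -0.59, beside a median of -0.02 over all tested genes. The 6 genes that passed compare with 22.7% of all genes called lower, and in the same 6 genes no low-iron value reached a high-iron value, which held for 21.8% of all genes. In RNA from whole cultures, fewer cells that express a gene and less of its RNA per cell cannot be told apart.

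**Figure D1:**
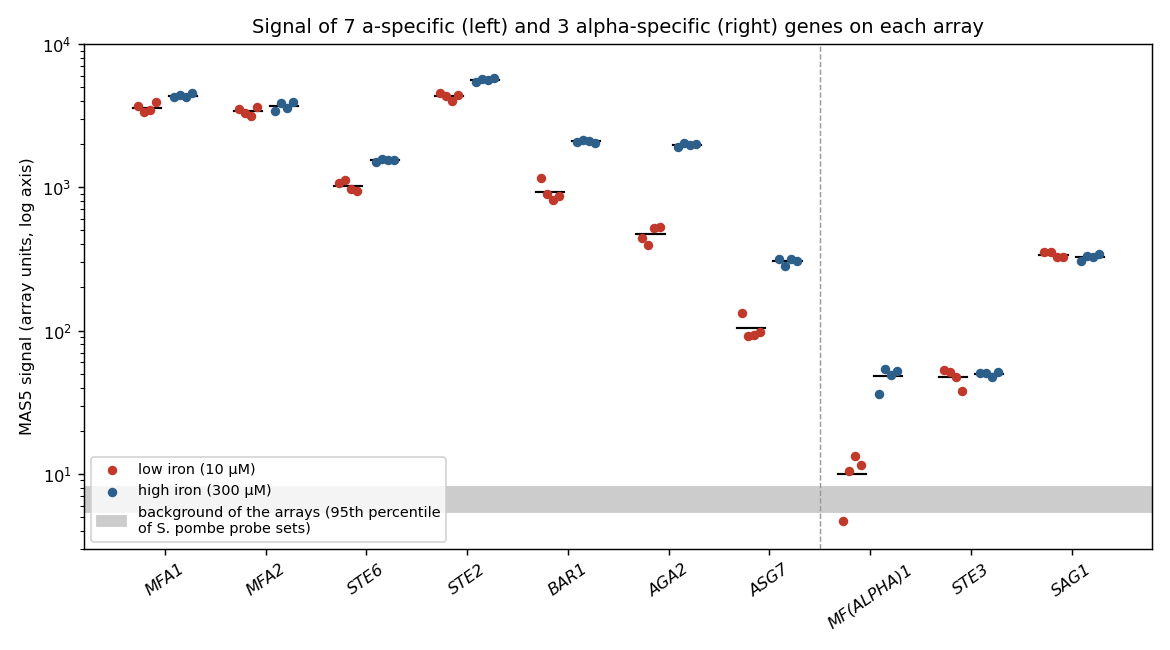
MAS5 signal (log axis, array units) of each gene on the 4 low-iron arrays (red) and the 4 high-iron arrays (blue), with black bars at the means and a grey band for the background of the 8 arrays (5.40 to 8.06). AGA2, ASG7 and BAR1 show the widest gaps between the conditions among the a-specific genes, and MF(ALPHA)1 in low iron lies next to the band.

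The ligand genes changed little. MFA1 (YDR461W) and MFA2 (YNL145W) encode precursors of the a-factor pheromone, a short lipid-modified peptide that a cells secrete. MFA1 read 3681, 3342, 3439 and 3944 on the low-iron arrays, against 4241, 4378, 4262 and 4549.9 on the high-iron arrays. All 4 low-iron values lie below all 4 high-iron values, by a small margin. MFA1 thus averaged 3601 ± 269 in low iron and 4358 ± 141 in high iron (SD, n = 4 each), and fell by 0.28 on the log2 scale (limma adjusted p = 0.00272). MFA2 read 3503, 3321, 3153 and 3618 in low iron and 3417, 3850.0, 3590.3 and 3948 in high iron. These 2 sets of values overlap, and the change of -0.12 did not pass the test (adjusted p = 0.126), with a 95% interval from -0.25 to 0.01. That interval excludes a fall in signal as large as that of BAR1, AGA2 or ASG7, but it does not allow for compression of bright signals.

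STE6 (YKL209C) encodes the ABC transporter that exports a-factor from a cells. Its signal was 1064, 1127, 971 and 949.6 in low iron, against 1499, 1588, 1550.0 and 1546 in high iron. The conditions are well separated, and STE6 fell 1.51-fold to a mean of 1028 ± 82.5 in low iron, against 1546 ± 36.3 in high iron (log2 change -0.59, limma adjusted p = 5.75e-05).

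STE2 (YFL026W), the receptor with which a cells sense alpha-factor, changed by less than BAR1, AGA2 and ASG7. It read 4571, 4369, 4015 and 4376 in low iron and 5395, 5686, 5607 and 5812 in high iron. STE2 fell 1.30-fold, with no overlap between the conditions (log2 change -0.38, 95% interval -0.48 to -0.28, limma adjusted p = 1.37e-04). The high-iron values are close to the brightest readings of the arrays, so this change, and those of MFA1 and MFA2, may be compressed.

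BAR1 (YIL015W) encodes the secreted protease with which a cells destroy alpha-factor. It read 1164, 897, 809 and 864 in low iron, against 2080.1, 2153, 2113 and 2045 in high iron. Low-iron array 1 is the highest of its condition but still far under every high-iron array. BAR1 averaged 934 ± 158 in low iron and 2098 ± 46.2 in high iron (SD, n = 4 each), a 2.27-fold fall (log2 change -1.18 ± 0.0987 SE, limma adjusted p = 1.10e-05).

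AGA2 (YGL032C) showed the largest fall of the a-specific genes. It encodes the binding subunit of a-agglutinin, which sits on the surface of a cells and sticks to the agglutinin of alpha cells. The signal was 446, 393, 517 and 526 in low iron, against 1906, 2038, 1978 and 1993 in high iron. Every high-iron array read over 3 times every low-iron array. AGA2 averaged 471 ± 62.7 in low iron and 1979 ± 55.0 in high iron, a 4.23-fold fall (log2 change -2.08, 95% interval -2.28 to -1.88, limma adjusted p = 7.69e-08). Counted from the most lowered, it ranked 20 among the 5412 genes tested. AGA1, which anchors Aga2 to the cell wall and is not specific to a cells, fell by 1.97 on the log2 scale, to 347 ± 21.8 in low iron, against 1361 ± 94.8 in high iron (adjusted p = 2.05e-08).

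ASG7 (YJL170C) encodes a membrane protein that dampens pheromone signalling after cells of opposite type meet. It read 133, 91.3, 93.5 and 98.0 in low iron and 317, 284, 318 and 305 in high iron. Low-iron array 1 is again the highest of its condition, as for BAR1, whereas AGA2 was lower on low-iron arrays 1 and 2 than on arrays 3 and 4. ASG7 fell 2.96-fold, with means of 104 ± 19.6 in low iron and 306 ± 15.6 in high iron (log2 change -1.56 ± 0.117 SE, limma adjusted p = 4.92e-06).

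The changes of the 7 genes were unequal in size, and the 95% intervals of AGA2, ASG7 and BAR1 do not reach those of STE6, STE2, MFA1 and MFA2. The changes of the bright STE2, MFA1 and MFA2 may be compressed, which these intervals do not allow for. Without low-iron arrays 1 and 2 the same 6 genes passed, and the log2 changes of BAR1 and ASG7 were -1.33 and -1.67. On the log2(signal + 64) scale, where dim signals count for less, AGA2, ASG7 and BAR1 had changes of -1.94, -1.15 and -1.13.

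**Figure D2:**
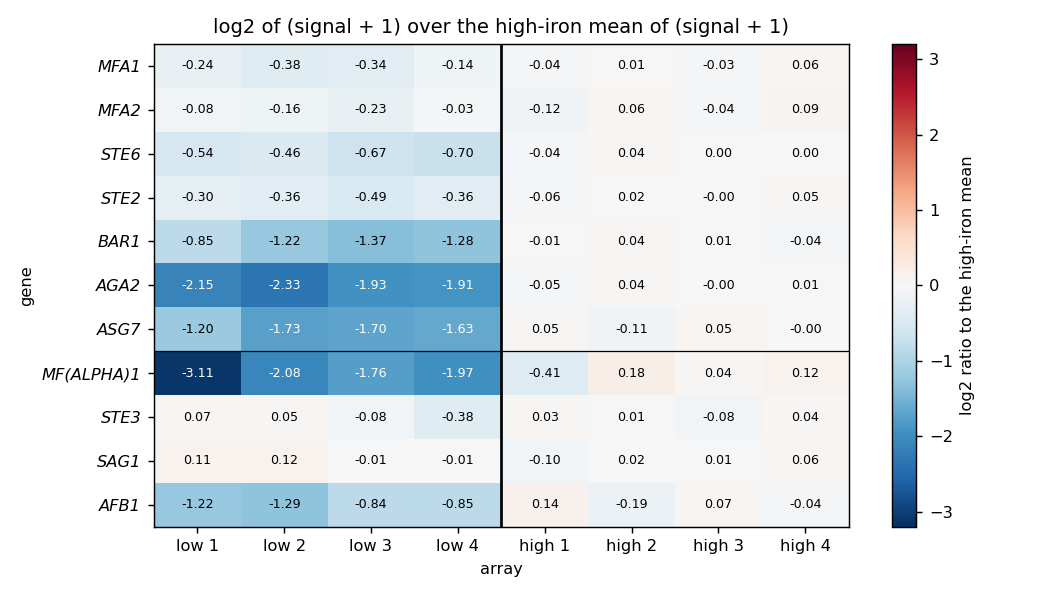
Each cell gives the log2 ratio of a gene's signal plus 1 on 1 array to the mean of signal plus 1 over the 4 high-iron arrays, with low-iron arrays at the left and high-iron arrays at the right. In low iron, values run from -1.91 to -2.33 for AGA2 and from -0.85 to -1.37 for BAR1, while STE3 and SAG1 lie near 0 on most arrays.

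Of the 3 alpha-specific genes 1, MF(ALPHA)1, was called lower, beside 22.7% of all tested genes, while STE3 and SAG1 did not pass. Across the 3 genes the signals ran from 4.67 to 354 in low iron and from 35.8 to 340.4 in high iron, each range ending at SAG1.

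MF(ALPHA)1 (YPL187W) encodes the main precursor of the alpha-factor pheromone. It read 4.67, 10.5, 13.4 and 11.5 in low iron, against 35.8, 54.4, 49.3 and 51.9 in high iron. In low iron the gene was above background on 3 of 4 arrays, by at most 2.17 times, and in high iron on all 4, by 6.21 to 9.21 times. MF(ALPHA)1 averaged 10.0 ± 3.76 in low iron and 47.8 ± 8.28 in high iron, and fell by 2.21 on the log2 scale (limma adjusted p = 1.55e-04). Since the signals are dim, the size of this fall depends on the added constant, and it came to -0.59 on the log2(signal + 64) scale (adjusted p = 3.54e-05).

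STE3 (YKL178C), the receptor with which alpha cells sense a-factor, was dim and did not pass the test. Its signal was 52.7, 51.7, 47.2 and 38.2 in low iron and 51.0, 50.5, 47.2 and 51.5 in high iron. The conditions overlap, with a log2 change of -0.09 and a 95% interval from -0.35 to 0.18 (limma adjusted p = 0.597). The low-iron values lie at 7.07 to 8.42 times background, and the high-iron values at 6.27 to 9.13 times.

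SAG1 (YJR004C) encodes alpha-agglutinin, the surface partner of Aga2 on alpha cells. It read 351, 354, 325 and 325 in low iron, against 305, 332, 329 and 340.4 in high iron. These values overlap, and the log2 change was 0.05, with an interval from -0.09 to 0.20 (adjusted p = 0.547). SAG1 stood at 41.2 to 60.4 times background over the 8 arrays. What its probe set measures at that level was not tested.

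Further genes known from alpha cells divided the same way. AFB1 (YLR040C), which encodes a secreted protein of alpha cells that blocks a-factor, read 129.8, 124, 169.6 and 168.6 in low iron and 335, 268, 319.9 and 296 in high iron. AFB1 fell 2.06-fold with no overlap (log2 change -1.05, limma adjusted p = 1.01e-04), and was lower on low-iron arrays 1 and 2 than on arrays 3 and 4, as AGA2 was. MF(ALPHA)2 (YGL089C), the minor alpha-factor gene, read 15.6, 14.2, 15.9 and 12.8 in low iron and 17.2, 23.9, 13.7 and 21.0 in high iron, which overlap. Its log2 change of -0.33 did not pass (adjusted p = 0.175), with an interval from -0.73 to 0.07. YKL177W, another gene of this list, had no probe set matched.

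**Figure D3:**
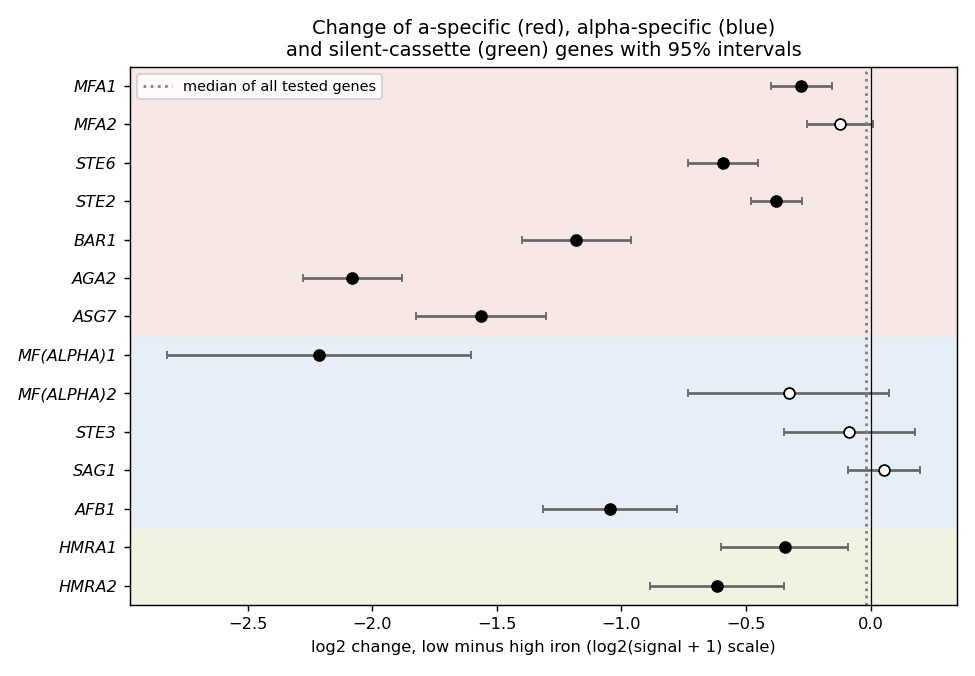
Log2 change, low minus high iron, of 14 genes with 95% intervals from limma. Filled points passed the test over all genes and open points did not, and the dotted line is the median of all tested genes (-0.02). AGA2, ASG7, BAR1, MF(ALPHA)1 and AFB1 lie beyond -1.

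Genes of the mating-type cassettes are not among the 10 genes, and 3 of 6 had a probe set matched. MATALPHA1, MATALPHA2 and HMLALPHA2 had none, so alpha2 was not read under its own name. The probe set of HMLALPHA1 stands for alpha1, and its suffix marks probes that also match related sequences. It read between 0.528 and 4.10 in low iron and between 0.372 and 5.43 in high iron, and none of these 8 readings exceeded the background of its array. The probe sets of HMRA1 and HMRA2, genes of the HMRA cassette, were above background on all 8. HMRA1 read 211, 204, 262 and 198 in low iron, against 285, 318, 274 and 234 in high iron. HMRA2, whose probe set also has the shared-sequence suffix, read 181, 173, 245 and 175 in low iron, against 310.0, 327, 261 and 282 in high iron. The HMRA2 signal may thus come in part from related sequences, and it is not read here as specific to a cells.

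Both HMRA cassette genes passed the test as lower in low iron, beside 22.7% of all tested genes. HMRA2 fell by 0.62 on the log2 scale, with no overlap (limma adjusted p = 0.00262). HMRA1 fell by 0.34 with overlapping values (adjusted p = 0.0355), a call lost in 9 of 19 alternatives, with adjusted p up to 0.131 without low-iron arrays 1 and 2. Several of the alternatives that kept the call left its signals unchanged. A copy at the silent cassette and a copy at the mating-type locus cannot be told apart by these probe sets.

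Summed over the 7 a-specific genes, the signal was 12998 to 14561 in low iron and 18855 to 20199 in high iron. Summed over STE3, SAG1, MF(ALPHA)1 and MF(ALPHA)2, it was 387 to 430.4 in low iron and 409 to 465 in high iron, and without SAG1 62.5 to 76.5 and 104 to 129. Probe sets differ in how strongly they bind their target, so these sums do not compare amounts of RNA between the lists. The a-specific sum also holds STE2, MFA1 and MFA2, whose changes may be compressed. No gene of either list was at 0. Genes of meiosis and sporulation, which run in a/alpha diploids, summed to 346 to 417 in low iron and 555 to 634 in high iron over 5 genes. Of these, 3 of 5 fell, beside 22.7% of all tested genes: SPO11, SPS1 and SPS4 had log2 changes of -1.10, -1.59 and -1.52. Their low-iron signals are dim, and the smallest falls across the 19 alternatives were -0.48, -0.88 and -0.92. SPS1 read 35.1 and 33.3 on low-iron arrays 1 and 2, against 68.5 and 59.8 on arrays 3 and 4. IME1 and IME2, which start and drive meiosis, did not pass, with changes of 0.12 and -0.08 (limma adjusted p = 0.351 and 0.631). The part that other cell types might have in the changes of the 10 genes was not tested.

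Haploid-specific genes are shared by a and alpha cells and shut off in a/alpha diploids. Of 11 such genes 6 fell and none rose, with a median log2 change of -0.35 and a range from -0.93 to 0.04. Over all tested genes 22.7% were called lower and 16.8% higher. Of the 3 G protein genes downstream of STE2, GPA1 and STE4 fell, while STE18, the gamma subunit, did not pass (log2 change -0.28, adjusted p = 0.0624). GPA1, the alpha subunit, fell to 1202 ± 213 in low iron, against 1927 ± 135 in high iron, and STE4, the beta subunit, fell to 1362 ± 90.4, against 1819 ± 77.4 (limma adjusted p = 0.00131 and 3.97e-04). FUS3, the mating MAP kinase, and FAR1, which arrests the cell cycle in response to pheromone, fell by 0.68 and 0.93 on the log2 scale. HO, the endonuclease of mating-type switching, had a log2 change of 0.03.

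Of 10 regulators of cell type 2 fell and none rose, with a median of 0.00, and the 2 are close to the 22.7% of all tested genes called lower. STE12, the transcription factor at the end of the pheromone cascade, read 698, 721, 706 and 695 in low iron, against 1029, 1037, 1002 and 1073 in high iron. STE12 fell by 0.55 on the log2 scale (limma adjusted p = 1.90e-05). MCM1, the shared cofactor of both cell types, fell by 0.42, to 782 ± 119 in low iron, against 1039.9 ± 40.1 in high iron (adjusted p = 0.00669). The corepressor genes TUP1 and CYC8 did not pass, with log2 changes of 0.12 and -0.01. Neither did the silencing genes SIR1 to SIR4, with changes between 0.00 and 0.14. SWI5 did not pass with all arrays (log2 change -0.24, limma adjusted p = 0.269). Without low-iron arrays 1 and 2 SWI5 was called lower, with a change of -0.58 (limma adjusted p = 7.77e-04), so that 3 of 10 regulators fell there.

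Genes that mature the pheromones mostly did not pass. Among 7 a-factor maturation genes 1 fell, AXL1, a protease that trims a-factor, by 0.35 (limma adjusted p = 0.00462), and the median was -0.14. That 1 of 7 is no larger a share than the 22.7% of all tested genes called lower. AXL1 is also 1 of the 6 haploid-specific genes that fell, so the 2 lists share this result. RAM1, STE14 and RAM2 did not pass, with log2 changes of -0.21, -0.14 and 0.11. Among the 3 alpha-factor maturation genes KEX2, KEX1 and STE13 none was called by limma at an adjusted or an unadjusted p under 0.05, with log2 changes from -0.03 to 0.07.

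Genes that pheromone induces in both cell types mostly fell. Of 16 such genes 14 fell and 1 rose, with a median log2 change of -1.25, beside 22.7% lower and 16.8% higher over all tested genes. FIG1, FUS1 and PRM1, all with known roles in the fusion of mating cells, fell, with log2 changes of -3.29, -2.38 and -2.31. FIG1 averaged 11.01 ± 1.94 in low iron and 116 ± 13.2 in high iron, with no overlap. These 3 falls came to -1.26, -1.80 and -1.27 on the log2(signal + 64) scale, since the low-iron signals are dim. PRM4, which rose by 1.32, and CIK1, which did not pass with a change of -0.14, are named for being the exceptions, after their values were seen. Without low-iron arrays 1 and 2 CIK1 was called lower too, with a change of -0.39 (adjusted p = 0.00735), and with 1 array left out its change lay between -0.27 and -0.03.

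**Figure D4:**
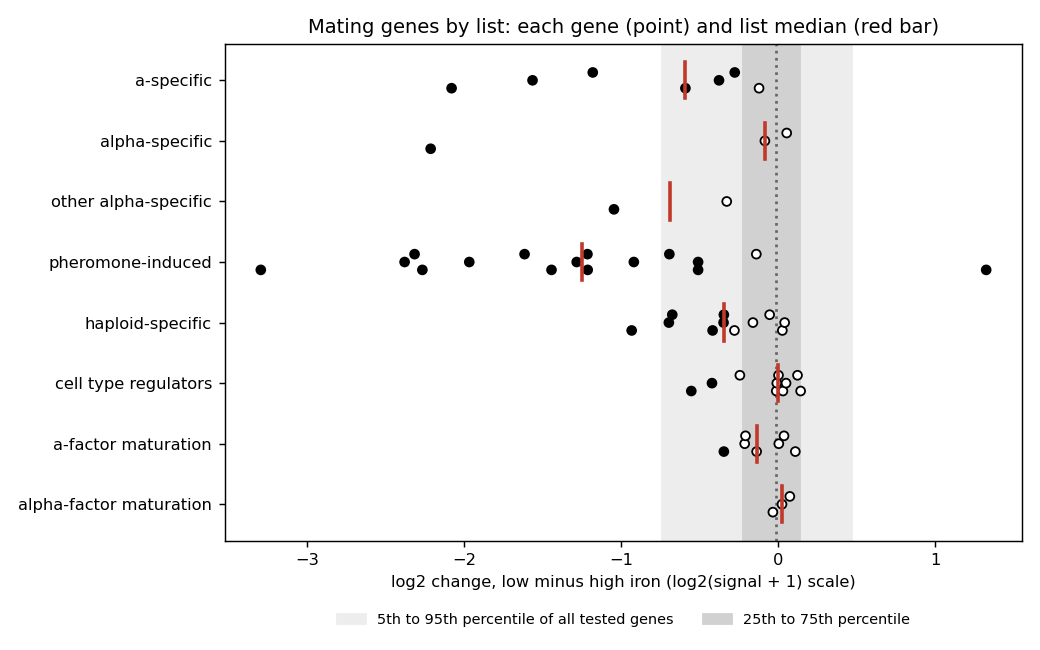
Log2 change, low minus high iron, of each tested gene (points, filled where called) by list, with list medians as red bars over the spread of all tested genes (grey, 5th to 95th and 25th to 75th percentile). The medians are -0.59 for a-specific genes, -1.25 for pheromone-induced genes, -0.35 for haploid-specific genes and -0.14 for a-factor maturation genes.

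A comparison of functional partners within each array asked whether their ratio differed between the conditions, for 3 pairs picked after the values were seen. The log2 ratio of MFA1 to MFA2 was 0.08 ± 0.05 in low iron and 0.24 ± 0.06 in high iron (SD, n = 4 each; two-sided exact permutation p = 0.0286, the smallest this design allows, and 0.0857 adjusted over the 3 pairs). The ratio of AGA2 to AGA1 was 0.43 ± 0.21 in low iron and 0.54 ± 0.07 in high iron (exact permutation p = 0.343, adjusted 0.343). The ratio of STE2 to GPA1 was 1.87 ± 0.30 in low iron and 1.55 ± 0.14 in high iron (exact permutation p = 0.0571, adjusted 0.0857). No pair passed after adjustment. The STE2 to GPA1 difference of 0.32 came to 0.18 without low-iron array 2 and to 0.16 without low-iron arrays 1 and 2, and the AGA2 to AGA1 difference of -0.11 came to -0.02 without low-iron array 2, to -0.18 without low-iron array 3 and to 0.02 without low-iron arrays 1 and 2.

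The nearest tested genes on either side of each member, in the gene order of assembly R64, were called about as often as genes at large. Of 20 such neighbours 3 were lower, 4 were higher and 13 were not called, beside 22.7% lower and 16.8% higher over all tested genes, and their median log2 change was 0.03. The 3 called lower were HOP2 beside AGA2 at -0.66, GYP8 beside STE2 at -0.64 and YNL146W beside MFA2 at -0.47. GYP8 and YNL146W had larger falls than STE2 and MFA2 themselves, at -0.38 and -0.12. The other neighbour of AGA2, RPL24A, was not called, at 0.05. For BAR1 the neighbours were SNL1, called higher at 0.39, and YIL014C-A, not called at 0.10. For MF(ALPHA)1 the neighbours POS5 and UIP4 were at -0.06 and -0.32 and did not pass. The neighbours were read after the values of the members were known.

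The genes outside the 10 whose signals followed the mean standardised profile of the 7 a-specific genes most closely over the 8 arrays were PRM2, CDA1, GLO1, SCW10 and HEM15, with Pearson r of 0.996, 0.992, 0.987, 0.985 and 0.984. Their log2 changes were -1.61, -0.76, -0.37, -0.46 and -1.71. The arrays share the split between the conditions, and 484 of 5402 genes had r over 0.9.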

How the data were processed

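The authors deposited 1 linear MAS5 signal intensity per probe set and array. MAS5 is the one tool in the submitters' processing notes, and its background and scaling settings are not stated there. Probe sets were named through the platform table and RefSeq's R64 gene table, used only for names and gene order. The brightest probe set per gene was kept. A gene entered the fit when its mean signal was above 5.48, which is where the 95th percentile of S. pombe probe sets lies (5412 of 5449 genes). Low iron was compared with high iron on log2(signal + 1) with limma 3.58.1 in R 4.3.3 (eBayes with an intensity trend, two-sided), with Benjamini-Hochberg adjustment over all tested genes. A fold change on this scale understates the change of dim genes. The fit was tested on simulated data. Figures used matplotlib 3.10.9.

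The members and gene lists were chosen with earlier results of these data known. All 10 members, every cassette gene and other alpha-specific gene with a probe set, and up to 4 genes per other list with the lowest adjusted p were to be named. CYC8, the SIR genes, HO, STE18, IME1, IME2, KEX1, KEX2, STE13, PRM4 and CIK1 were added after their values were seen. No sequence is printed, as the reference tables used here hold none. Alternatives were other pseudocounts (16 and 64), quantile normalization, median centring, other filters, values raised to background, no trend, array weights, the mean of probe sets and arrays left out.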

Additional observations from a re-analysis of the deposited data

Results flagged for a closer look

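Among 28 sets of 4 arrays examined for the 10 genes and the other alpha-specific and cassette genes, 2 held an array far from the others, where chance gives about 1 in 20. ASG7 read 133.1 on low-iron array 1, against 91.3 to 98.0 on the other low-iron arrays. HMRA2 read 245.1 on low-iron array 3, against 172.9 to 181.1 on the others. In both cases the gap to the nearest array was over 0.829 of the range of the 4. Without low-iron array 1 ASG7 still fell (log2 change -1.69).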

How the results depend on the processing

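The 7 called members (STE2, BAR1, ASG7, AGA2, MFA1, STE6 and MF(ALPHA)1) kept their direction and call in all 19 alternatives, so that 6 or 7 a-specific genes and 1 alpha-specific gene passed in each. The seventh was MFA2, called under quantile normalization (log2 change -0.17, adjusted p = 0.0168). Genes not called turned sign: STE3 to 0.26 under quantile normalization and between -0.14 and 0.013 with 1 array left out, SAG1 to -0.0054 and the AGA2 to AGA1 ratio to 0.022 without low-iron arrays 1 and 2, and MF(ALPHA)2 to 0.0044 under quantile normalization; the cause was not tested. The number of a-factor maturation genes called lower was 1 or 2. With 1 array left out, 1717 to 2306 genes passed in all. No paired analysis was possible because the labels give no replicate numbers shared by the conditions. Signals near background limit MF(ALPHA)1 in low iron, and signals near the brightest limit STE2, MFA1 and MFA2.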
